A study of Rattus norvegicus with 4 samples.

Results

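Cholesterol synthesis was followed here through 8 enzymes of the pathway: Hmgcs1, Idi1, Fdps, Fdft1, Sqle, Cyp51, Msmo1 and Sc5d. They were chosen by symbol from the list of 32623 genes, each symbol matched 1 row, and all 8 were counted. The counts came from droplet sequencing of dissociated hippocampus of wild-type male Sprague Dawley rats aged 10 to 12 months. The series listed 4 titled samples with 1 library each: MD and DEPR, both described by chronic stress, MCAO, described by a unilateral occlusion of the middle cerebral artery (a stroke model), and NC, the negative control. The labels do not say what sets MD apart from DEPR, and the design text, which describes 2 groups of 10 rats that all had the occlusion, of which 5 rats per group were sequenced, names fewer groups than the samples do.

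The matrix pooled all libraries, and its barcodes ended in suffixes 1 to 4 that no label ties to a titled sample. Every value is therefore given per barcode set, in the order of sets 1 to 4, and no titled samples are compared. Each set is a single library, so no test between conditions was possible, and the intervals below cover counting error only.

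Cholesterol is built from acetyl groups in a long chain of reactions. The early steps, the mevalonate pathway, end in farnesyl pyrophosphate, which also feeds protein prenylation, ubiquinone and dolichol. Joining farnesyl units to squalene commits the chain to sterols, and the later steps close and trim the ring system. The brain makes its own cholesterol because lipoproteins of the blood do not cross the blood-brain barrier, and oligodendrocytes need large amounts of it for myelin. The genes of the pathway are known targets of the sterol-sensing transcription factors of the SREBP family, which bind promoters together with factors at CCAAT and GC boxes.

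Promoters from RefSeq (build GRCr8, 250 bases before to 50 bases after the gene start) were in the table for 6 of the 8 genes, and Fdft1 and Sqle had no entry. Those of Idi1, Fdps and Msmo1 are shown because these genes had 3 different patterns across the cell types. Capitals in the sequences mark the CCAAT box (CCAAT), the GC box (GGGCGG) and the shorter sterol motif (TCACNC), each on either strand. The Idi1 promoter lies at chr17:66547475-66547774 on the minus strand, that of Fdps at chr2:176804767-176805066 on the minus strand and that of Msmo1 at chr16:29746863-29747162 on the plus strand.
Idi1: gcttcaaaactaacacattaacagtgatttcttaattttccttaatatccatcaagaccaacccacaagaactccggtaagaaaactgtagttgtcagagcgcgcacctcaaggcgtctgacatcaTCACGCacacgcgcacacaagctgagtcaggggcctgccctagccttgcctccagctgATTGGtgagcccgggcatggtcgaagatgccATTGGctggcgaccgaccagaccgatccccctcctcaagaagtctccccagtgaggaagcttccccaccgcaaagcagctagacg
Fdps: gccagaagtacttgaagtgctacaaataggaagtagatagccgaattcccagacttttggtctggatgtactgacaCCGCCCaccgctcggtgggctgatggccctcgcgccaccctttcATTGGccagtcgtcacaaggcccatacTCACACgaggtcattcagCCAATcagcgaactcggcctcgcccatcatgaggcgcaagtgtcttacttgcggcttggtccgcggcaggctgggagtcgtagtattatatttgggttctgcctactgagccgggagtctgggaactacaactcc
Msmo1: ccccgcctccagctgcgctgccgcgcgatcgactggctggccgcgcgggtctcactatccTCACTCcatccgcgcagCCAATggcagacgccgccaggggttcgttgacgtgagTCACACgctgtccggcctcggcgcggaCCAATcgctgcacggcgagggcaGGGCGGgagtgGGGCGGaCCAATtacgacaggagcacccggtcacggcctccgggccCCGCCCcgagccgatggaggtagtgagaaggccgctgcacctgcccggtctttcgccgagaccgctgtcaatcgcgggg

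The Msmo1 promoter held 3 CCAAT boxes, 3 GC boxes and 2 shorter sterol motifs, 1 of which runs on into the longer core TCACNCCA. The Fdps promoter held 2 CCAAT boxes, 1 GC box and 1 shorter sterol motif, and that of Idi1 held 2 CCAAT boxes and 1 shorter sterol motif but no GC box. A CCAAT box was found in 5 of the 6 promoters, against 37.5% of all 33469 promoters in the table. The GC box was also in 5 of 6, against 33.1% of all, and the shorter sterol motif in 5 of 6, against 41.7% of all. The longer core TCACNCCA was in 1 of 6, that of Msmo1, against 3.89% of all promoters. These are matches of letters within a fixed window and do not show binding.

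The 4 sets held 5884 to 9504 barcodes, with a median of 4383 to 5679.5 UMIs (unique molecular identifiers, which count captured transcripts) per barcode. After filtering and removal of called doublets 27937 cells were kept, and 96 of the 31542 distinct barcodes occurred in more than 1 set. A cell was assigned to a type when it held at least 3 of the type's markers and clearly more of that panel than of any unrelated one, which gave a type to 22955 cells. The main types were 7902 oligodendrocyte-like cells (median 11 of 12 markers found), 2949 endothelial-like cells (10 of 12), 9003 microglia-like cells (5 of 8) and 757 T cell-like cells (6 of 8). The microglia-like gate was the loosest: 18.7% of its cells held only 3 markers, and 5631 of its 9003 cells lay in clusters that were themselves named microglia. Another 451 cells rich in haemoglobin transcripts, which also carried a median of 10 of 12 endothelial markers, were set apart. None of the 8 enzymes was a marker.

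Levels are given as CPM, UMIs of the gene per 1000000 UMIs of the same cells. Oligodendrocyte-like cells stood highest of the 4 main types for 7 of the 8 enzymes at the median of the sets, and Idi1 was the exception, with its lowest level there. Compared with the sum of all other gated cells, of which microglia-like cells were the largest share, 6 of the 8 enzymes were called higher in oligodendrocyte-like cells and 0 lower. A gene was called when its ratio was at least 2 or at most 0.5, with a counting interval that left out 1, in every set. Of all 12216 genes measured, 17.4% were called higher and 25.8% lower by that rule. The median log2 ratio was 2.15 over the 8 enzymes, against 0.02 over all measured genes.

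**Figure D1:**
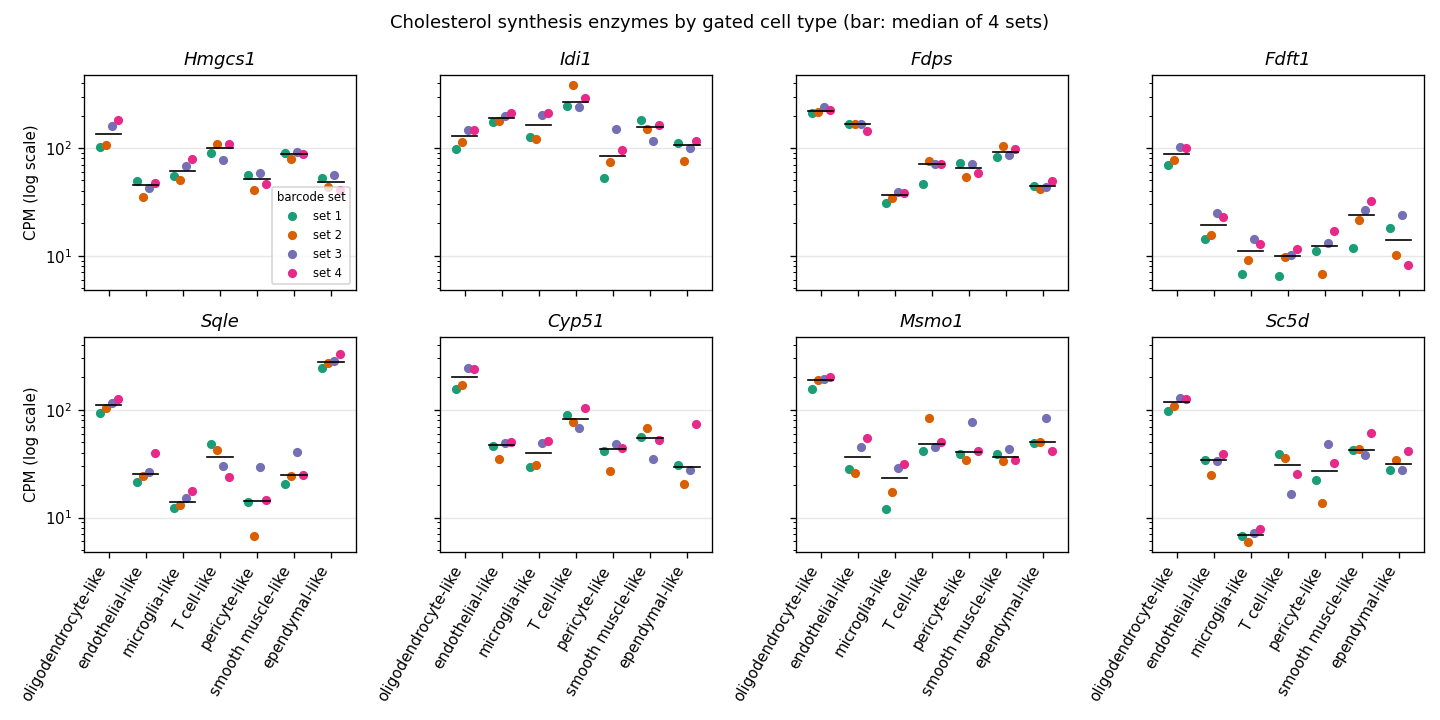
Levels of the 8 enzymes in CPM (log scale) by gated cell type, with 1 point for each of the 4 barcode sets and a bar at their median. Oligodendrocyte-like cells lie on top from Fdps onwards except for Sqle, which peaks at 246 to 329 CPM in ependymal-like cells. The medians of Idi1 run from 85.0 CPM in pericyte-like to 269 CPM in T cell-like cells.

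Hmgcs1 makes HMG-CoA at the entry of the mevalonate pathway. Its level in oligodendrocyte-like cells was 102, 107, 160 and 182 CPM in sets 1 to 4. In microglia-like cells it was 55.4, 50.7, 68.1 and 78.3 CPM, and in endothelial-like cells 49.9, 35.1, 42.9 and 47.1 CPM. T cell-like cells, with 90.3, 108, 76.8 and 110 CPM, overlapped the oligodendrocyte-like range. Oligodendrocyte-like cells were above the other gated cells in all 4 sets, with log2 ratios of 0.91, 1.16, 1.35 and 1.34. Set 1 missed the 2-fold line, so the gene was not called, and it was called when set 1 was left out.

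Idi1, which isomerises isopentenyl pyrophosphate and so readies the building blocks for chain growth, had its lowest level of the 4 main types in oligodendrocyte-like cells. Oligodendrocyte-like cells held 98.3, 115, 146 and 148 CPM of it. The other main types were higher in every set: microglia-like cells held 126, 122, 202 and 210 CPM, endothelial-like cells 173, 179, 199 and 210 CPM, and T cell-like cells 247, 388, 239 and 292 CPM. The ranges of endothelial-like and microglia-like cells overlapped, as did those of microglia-like and oligodendrocyte-like cells, while T cell-like cells lay above all of them. Against the other gated cells the log2 ratio in oligodendrocyte-like cells was -0.48, -0.15, -0.38 and -0.45, below 0 in every set but within 2-fold, so the gene was not called.

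Fdps, farnesyl pyrophosphate synthase, stands at the fork to prenylation and sterols. It reached 213, 218, 239 and 225 CPM in oligodendrocyte-like cells, the narrowest range of the 8 enzymes there. Endothelial-like cells came next with 169, 167, 166 and 145 CPM, ahead of T cell-like cells with 46.7, 75.4, 70.5 and 70.8 CPM and microglia-like cells with 30.7, 34.3, 38.7 and 38.4 CPM. The ranges of these 4 types did not overlap. Fdps was called higher in oligodendrocyte-like cells, at a median of 3.49 times the other gated cells (log2 ratios of 1.47 to 2.08).

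Fdft1, squalene synthase, makes the committed step towards sterols. Oligodendrocyte-like cells held 70.0, 76.7, 102 and 99.2 CPM. Endothelial-like cells held 14.3, 15.6, 24.7 and 22.8 CPM, microglia-like cells 6.70, 9.11, 14.3 and 12.9 CPM, and T cell-like cells 6.45, 9.83, 10.1 and 11.5 CPM. The lowest oligodendrocyte-like set was thus well above the highest set of any other main type. The ratio to the other gated cells was 6.95 at the median, with counting intervals between 5.37 and 9.14 over the sets.

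Sqle, squalene epoxidase, adds the oxygen that lets the ring close. Its level was 93.3, 104, 116 and 127 CPM in oligodendrocyte-like cells, against 12.2, 12.97, 15.1 and 17.8 CPM in microglia-like cells. Endothelial-like cells had 21.5, 24.3, 26.7 and 39.9 CPM, and T cell-like cells 48.4, 42.6, 30.2 and 23.9 CPM. Oligodendrocyte-like cells stood at a median of 4.18 times the other gated cells, and again no other main type overlapped them.

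At the median of the sets, Sqle was highest of all gated types in the 153 ependymal-like cells, which line the ventricles: 246, 273, 283 and 329 CPM, above oligodendrocyte-like cells in every set. A Sqle UMI was found in 88.9% of them, or in 20.4% once each cell was thinned to 1000 UMIs, against 41.9% and 10.2% of oligodendrocyte-like cells. The other 7 enzymes were not highest in these cells. Pooled over the sets, ependymal-like cells had 14.8 CPM of Fdft1, 28.4 CPM of Cyp51, 31.3 CPM of Sc5d and 43.6 CPM of Fdps, each below oligodendrocyte-like cells. The cell type was measured in few but deep cells, with a median of 13798 UMIs per cell.

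Cyp51 takes a methyl group off lanosterol, the earliest ring-shaped sterol of the pathway. It reached 154, 169, 242 and 238 CPM in oligodendrocyte-like cells. T cell-like cells followed with 88.7, 77.0, 68.0 and 105 CPM, then endothelial-like cells with 45.7, 35.1, 49.5 and 50.6 CPM and microglia-like cells with 29.6, 30.5, 49.1 and 51.7 CPM. The last pair overlapped, and neither overlapped the T cell-like range. Oligodendrocyte-like cells were at a median of 4.72 times the other gated cells.

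Msmo1, which oxidises further methyl groups of the sterol, was found at 155, 188, 195 and 201 CPM in oligodendrocyte-like cells. Microglia-like cells had 11.9, 17.2, 29.1 and 31.6 CPM, endothelial-like cells 28.3, 25.9, 45.2 and 54.4 CPM, and T cell-like cells 41.9, 83.6, 45.3 and 50.8 CPM. The ratio of oligodendrocyte-like cells to the other gated cells was 6.40 at the median, with log2 ratios of 2.45 to 3.08.

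Sc5d desaturates the ring near the end of the pathway and had the largest ratio of the 8 enzymes at the median of the sets. In set 1 its log2 ratio of 2.42 was below those of Fdft1 and Msmo1, both at 2.88. Oligodendrocyte-like cells held 98.1, 108, 130 and 127 CPM. Microglia-like cells held 6.70, 5.90, 7.17 and 7.86 CPM, endothelial-like cells 34.5, 24.8, 33.6 and 39.0 CPM, and T cell-like cells 38.7, 36.0, 16.4 and 25.4 CPM. Oligodendrocyte-like cells stood at a median of 7.89 times the other gated cells (log2 ratios of 2.42 to 3.30).

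The smaller types were described from levels pooled over the sets. The 355 smooth muscle-like cells had 153 CPM of Idi1, 91.6 CPM of Fdps and 88.1 CPM of Hmgcs1, but 24.7 CPM of Fdft1 and 28.2 CPM of Sqle. In the 462 pericyte-like cells the pooled levels ran from 13.2 CPM for Fdft1 to 97.5 CPM for Idi1. The 202 border macrophage-like cells had 179 CPM of Idi1 against 6.25 CPM of Fdft1 and 7.29 CPM of Sc5d. Their Idi1 level ran from 42.2 to 232 CPM over the sets, and 121 of these cells were from set 4. The 76 neutrophil-like cells held at most 7 UMIs of any of the 8 enzymes. Of the 76 cells 0 held a UMI of Sqle or of Sc5d. For either gene 3 counts would be a share of 3.95%, and the exact binomial interval reached up to 4.74%. Only 28 cells passed the gate of oligodendrocyte precursors, and their levels had intervals too wide to rank, such as 60.9 to 187 CPM for Cyp51.

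**Figure D2:**
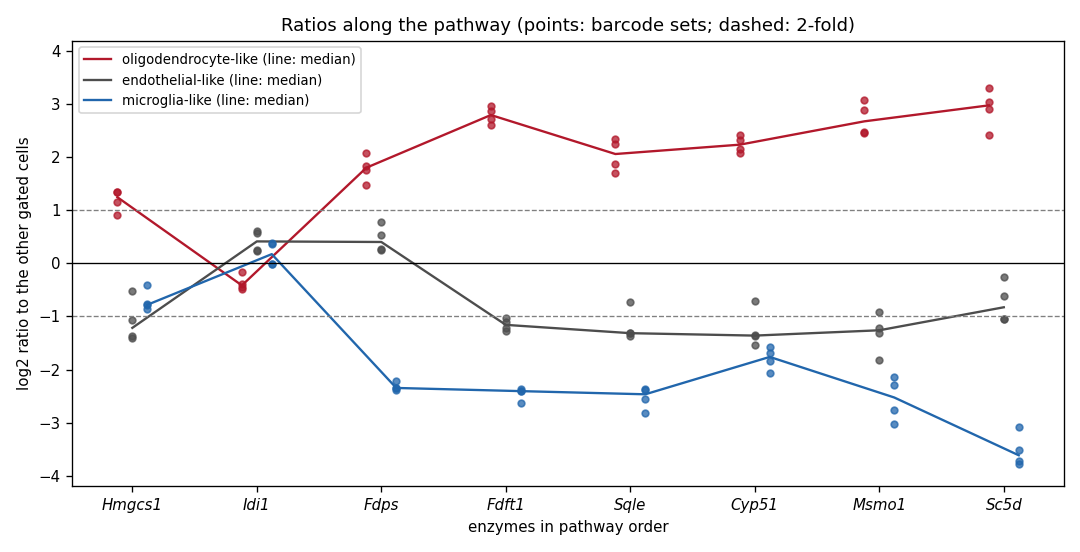
Log2 ratio of each enzyme's level in oligodendrocyte-like, endothelial-like and microglia-like cells to the other gated cells of the same barcode set, in pathway order, with 1 point per set, a line through the medians and dashed lines at 2-fold. At Idi1 the oligodendrocyte-like curve is the lowest, with medians of -0.41 there, 0.42 in endothelial-like and 0.18 in microglia-like cells. The curves are widest apart at Sc5d, where the medians are 2.98 in oligodendrocyte-like and -3.62 in microglia-like cells.

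Microglia-like cells were the reverse of oligodendrocyte-like cells from Fdps onwards, and not for Hmgcs1 and Idi1. The enzymes from Fdps to Sc5d, 6 of the 8, were called lower there and 0 higher, against 31% of all measured genes called lower and 9.5% higher. The median ratio over all measured genes was itself below 0 in these cells, at -0.66 on the log2 scale, and scaling by TMM factors in place of total UMIs moved it by 0.53. Relative to that median the values were -1.69 for Fdps, -1.75 for Fdft1, -1.81 for Sqle, -1.11 for Cyp51, -1.87 for Msmo1 and -2.96 for Sc5d. Hmgcs1 (-0.78, or -0.12 relative to the median) and Idi1 (0.18, or 0.83 relative) were not called. When the other cell types were given equal weight, so that the many oligodendrocyte-like cells no longer dominated the other side, 3 enzymes stayed called lower (Fdps, Sqle and Sc5d).

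Set beside oligodendrocyte-like cells directly, microglia-like cells held 106 to 142% of the Idi1 level and 42.4 to 54.5% of the Hmgcs1 level. From there on the shares were 14.4 to 17.1% for Fdps, 9.57 to 14.0% for Fdft1, 12.5 to 14.0% for Sqle, 18.0 to 21.7% for Cyp51, 7.66 to 15.8% for Msmo1 and 5.46 to 6.83% for Sc5d. The myelin gene Mbp serves as a yardstick for oligodendrocyte RNA in microglia-like cells, which held 1.15 to 2.87% of the Mbp level of oligodendrocyte-like cells. All 8 enzymes were above this yardstick in every set.

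Endothelial-like cells had Idi1 and Fdps above the other gated cells in every set (median log2 ratios of 0.42 and 0.40) and the remaining 6 enzymes below (-0.83 to -1.36). Of these only Fdft1 was called, as lower (-1.16), against 16% of all measured genes called lower and 10.3% higher. That call was lost under 8 of the alternatives, in which the log2 ratio was -0.82 to -1.34 except for -0.08 with equal weight of the other cell types, and 3 enzymes were called lower when set 1 (Hmgcs1, Fdft1 and Cyp51) or set 4 (Fdft1, Sqle and Msmo1) was left out. In T cell-like cells 1 of the 8 enzymes, again Fdft1, was called lower (-2.03) and 0 higher, against 13.9% and 6.01% of all measured genes. Idi1 was above the other gated cells in all 4 sets of T cell-like cells, with log2 ratios of 0.99, 1.72, 0.49 and 0.72, and was not called.

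The balance along the pathway also differed between the cell types. Hmgcs1 and Idi1 together made up 20.3, 20.4, 23.1 and 24.5% of the UMIs of the 8 enzymes in oligodendrocyte-like cells. Endothelial-like cells stood at 41.6, 42.2, 41.2 and 42.3%, T cell-like cells at 55.4, 60.5, 56.8 and 58.4% and microglia-like cells at 65.0, 61.1, 63.8 and 64.3%. No 2 of these types overlapped. The summed level of all 8 enzymes was 984, 1086, 1330 and 1346 CPM in oligodendrocyte-like cells, against 279, 282, 424 and 448 CPM in microglia-like cells, 536, 506, 588 and 609 CPM in endothelial-like cells and 608, 821, 557 and 689 CPM in T cell-like cells.

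Shares of cells with a UMI differed in the same direction for Fdps and Sc5d, before and after thinning. Fdps was found in 67.4% of oligodendrocyte-like cells as counted and in 20.1% after each cell was thinned to 1000 UMIs, against 17.1% and 3.35% of microglia-like cells. For Sc5d the shares were 45.1% and 10.8% in oligodendrocyte-like cells, against 3.54% and 0.710% in microglia-like cells. Microglia-like cells had an Mbp UMI in 26.7% of cells as counted and in 6.94% thinned, so low shares as such do not show expression in a given cell. The median depths were 5584.5 UMIs in oligodendrocyte-like and 5354 in microglia-like cells.

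For Idi1 level and share of cells ran in opposite directions. Microglia-like cells had more of it by CPM than oligodendrocyte-like cells in every set, yet a UMI was found in fewer of them, 31.6% against 42.4%. In cells thinned to 4000 UMIs, Idi1 was found in 28.7% of 6716 microglia-like cells, where an even (Poisson) spread of the same UMIs would give 49.7%, and in 34.3% of 6434 oligodendrocyte-like cells, where an even spread would give 40.3%. The variance over the mean (Fano factor, 1 for an even spread) was 4.97 in microglia-like cells and 1.60 in oligodendrocyte-like cells. The richest 5% of microglia-like cells carried 49.8% of the Idi1 UMIs, up to 36 in a single cell, against 31.9% and up to 9 in oligodendrocyte-like cells. In T cell-like cells the Fano factor was 6.44, the richest 5% of cells carried 42.1% of the Idi1 UMIs, and a single cell held up to 37.

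For the other enzymes the Fano factor in microglia-like cells ran from 1.02 for Fdps to 1.32 for Sqle over the 6 enzymes after Idi1, and was 1.84 for Hmgcs1. The factor tends to 1 at low means, and those 6 enzymes had means of 0.0271 to 0.163 UMIs per cell there against 0.687 for Idi1, so no order of evenness is drawn from it. Among oligodendrocyte-like cells it ran from 1.11 for Sc5d to 1.70 for Hmgcs1. At 4000 UMIs an oligodendrocyte-like cell held UMIs of 3 of the 8 enzymes at the median, 22.7% of cells held 5 or more and 3.53% held none. Microglia-like cells held 1 at the median, with 39.7% holding none and 0.342% holding 5 or more.

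Other genes of the pathway were taken from lists. Among the other mevalonate and sterol steps, 5 of 11 measured genes were called higher in oligodendrocyte-like cells and 0 lower, against 17.4% of all measured genes called higher and 25.8% lower. Pmvk, which phosphorylates mevalonate phosphate, had 122, 128, 156 and 162 CPM there, against 22.5, 23.2, 19.1 and 22.1 CPM in microglia-like cells, and a median log2 ratio of 2.29 to the other gated cells. Lss, which closes the ring, followed with 1.74, then Tm7sf2 (1.22), a reductase of late sterols, and Nsdhl (1.09), a sterol dehydrogenase. These 3, and Scap, Srebf1 and Abcg1 below, lie outside the 25 largest ratios and were named after their values were seen, as were Mvd and Srebf2, which were not called. Mvd, the last enzyme before Idi1, had a log2 ratio of -0.74 and was not called.

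Of 11 SREBP control genes, 3 were called higher in oligodendrocyte-like cells, against 17.4% of all measured genes, and 0 lower, against 25.8%. These were Insig1, whose protein is a sterol-dependent brake on SREBP (2.24), the escort protein Scap (1.87) and Srebf1 (1.64). Srebf2, the family member tied most closely to cholesterol synthesis, had a ratio of 0.95 and was not called. Fatty acid synthesis had 6 of 9 called higher and 0 lower, led by the desaturases Scd2 (3.92) and Scd (3.72), whose reads may be shared between these near copies, Elovl6 (3.60), which lengthens fatty acids, and Fasn, fatty acid synthase (2.55). Of the side branches of the mevalonate pathway, 1 of 8 was called higher, a share below that of all measured genes: Fnta (2.40), a subunit of the protein prenylating enzymes.

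**Figure D3:**
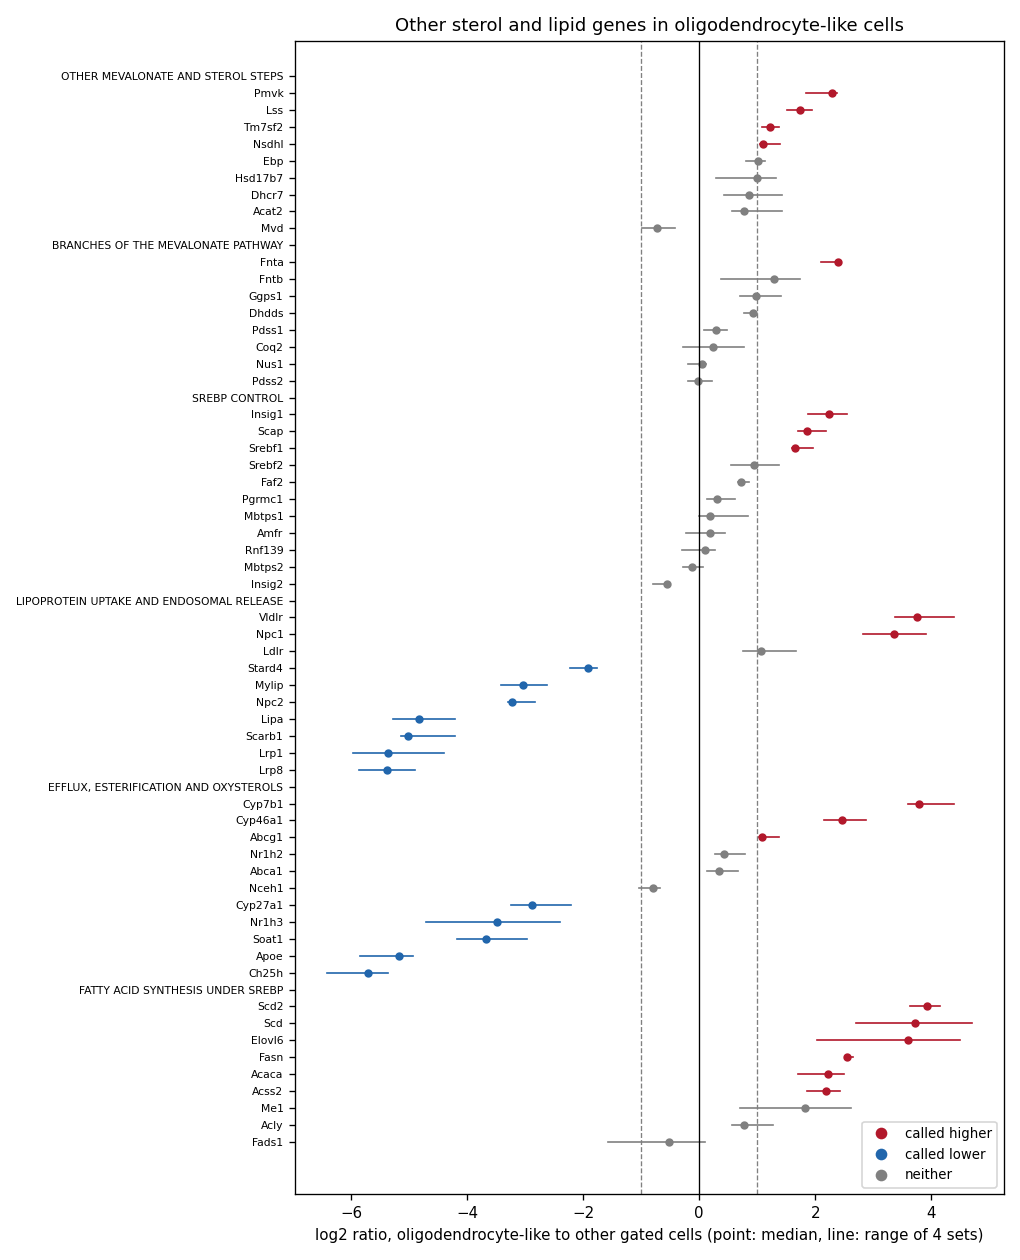
Log2 ratio of oligodendrocyte-like to other gated cells for 58 of the 60 measured genes of the other lists, as the median of 4 sets with a line over their range. Red genes were called higher (19), blue ones lower (12) and grey ones neither, with dashed lines at 2-fold.

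Genes of uptake and export moved in both directions. In oligodendrocyte-like cells 2 of 10 uptake and release genes were called higher, the lipoprotein receptor Vldlr (3.76) and Npc1 (3.36), which exports cholesterol from lysosomes, and 7 were called lower. Over all measured genes 17.4% were called higher, near the share of this list, and 25.8% lower. Npc2, the partner of Npc1 in that export, went the other way (-3.22), as did the lysosomal lipase Lipa (-4.83) and the receptors Lrp1 (-5.37), Scarb1 (-5.03) and Lrp8 (-5.39). Microglia-like cells had 4 of these 10 called higher, Npc2 (3.82), Lipa (2.94), Lrp1 (2.80) and Mylip (2.50), which marks lipoprotein receptors for decay, and 4 lower, against 9.5% and 31% of all measured genes. Endothelial-like cells had 3 called higher and 5 lower, against 10.3% and 16% of all measured genes. The higher ones were Lrp8 (7.13), Scarb1 (4.30) and Stard4 (3.12), a sterol carrier.

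Among 11 genes of efflux, esterification and oxysterols, 3 were called higher in oligodendrocyte-like cells and 5 lower, against 17.4% and 25.8% of all measured genes. The higher ones were the sterol hydroxylases Cyp7b1 (3.79) and Cyp46a1 (2.46) and the exporter Abcg1 (1.07). Cyp46a1 was low there, at 3.61, 2.73, 1.98 and 1.04 CPM, against 19.8, 21.8, 23.2 and 24.0 CPM of Cyp7b1. The lower ones included Apoe, the main protein of the brain's lipoproteins (-5.18), Soat1, which esterifies cholesterol (-3.67), and Ch25h, which makes an oxysterol (-5.71). In microglia-like cells Apoe (2.90), Soat1 (2.45) and Ch25h (2.33) were called higher, 3 of the 11, against 9.5% of all measured genes, and 3 were lower, a share near the 31% of all measured genes. Over all 60 measured genes of these lists 20 were called higher and 12 lower in oligodendrocyte-like cells, 7 and 20 in microglia-like cells, 5 and 15 in endothelial-like cells and 0 and 15 in T cell-like cells. Of all measured genes 17.4% and 25.8% were called so in oligodendrocyte-like cells, 9.5% and 31% in microglia-like cells, 10.3% and 16% in endothelial-like cells and 6.01% and 13.9% in T cell-like cells, so the counts in microglia-like cells and the higher ones in endothelial-like cells lay near the share of all genes.

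**Figure D4:**
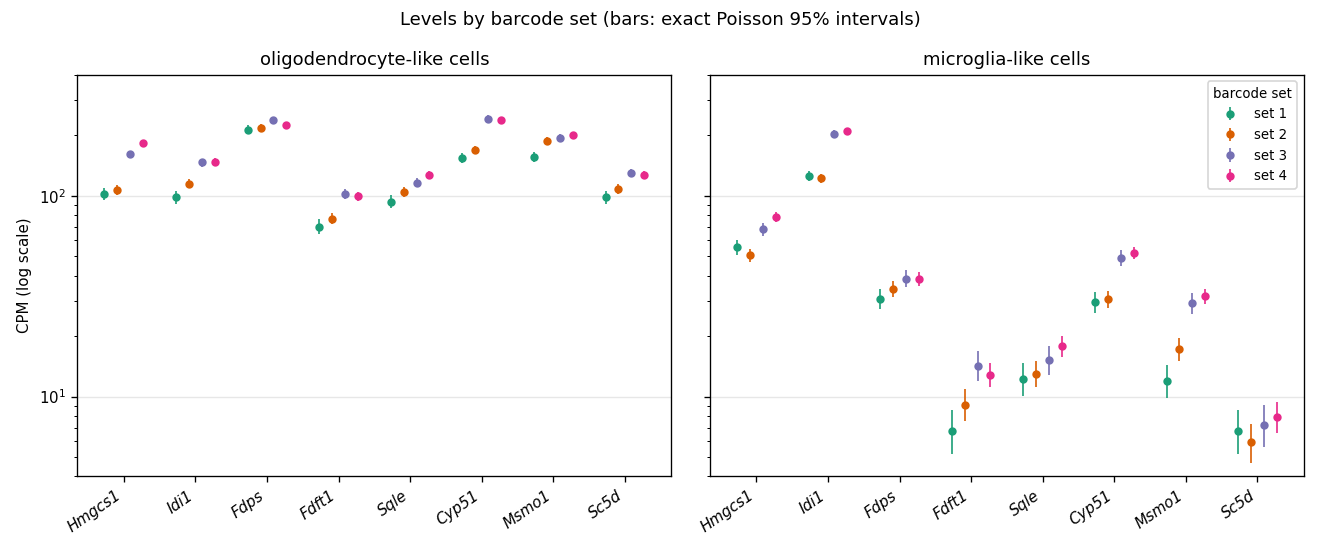
Levels in CPM (log scale) of the 8 enzymes by barcode set in oligodendrocyte-like and microglia-like cells, with exact Poisson 95% intervals. In both cell types sets 3 and 4 lie above sets 1 and 2 for every enzyme, by the most for Hmgcs1 (1.79-fold) in oligodendrocyte-like and Msmo1 (2.66-fold) in microglia-like cells.

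Between the barcode sets, oligodendrocyte-like cells differed by less than 2-fold for all 8 enzymes. The highest set stood above the lowest by 1.79-fold for Hmgcs1 (interval 1.65 to 1.94), 1.57-fold for Cyp51, 1.50-fold for Idi1 and 1.12-fold for Fdps (1.06 to 1.19). In the same cells 9.3% of 9515 measured genes differed by at least 2-fold. For 8 of the 8 enzymes sets 3 and 4 were both above sets 1 and 2, a course that 42.3% of all measured genes took.

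In microglia-like cells 2 of the 8 enzymes differed by at least 2-fold between sets, against 13.9% of all measured genes: Msmo1 by 2.66-fold (2.16 to 3.29) and Fdft1 by 2.13-fold (1.57 to 2.91). Again 8 of 8 had sets 3 and 4 above sets 1 and 2, against 49.7% of all measured genes. Mitochondrial UMIs moved with the sets in these cells, at 6.30, 5.68, 4.66 and 3.64% of all UMIs, and so did the oligodendrocyte marker panel, which summed to 251, 283, 468 and 482 CPM in microglia-like cells. The endothelial panel summed to 387, 359, 864 and 837 CPM in them, and their own microglia panel to 2469, 2345, 4516 and 4215 CPM. Cells with only the minimum of 3 markers were 562 of 1806, 802 of 2772, 103 of 1543 and 215 of 2882. The part of these in the result was not tested. The medians of UMIs per microglia-like cell were 5086.5, 4709.5, 6722 and 5794.5.

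Endothelial-like and T cell-like cells followed this course for fewer enzymes. Endothelial-like cells had 5 of 8 enzymes higher in sets 3 and 4, against 52.4% of all measured genes, and their summed level was also higher in those sets. In them 1 of 8, Msmo1 (2.10-fold), differed by at least 2-fold, against 14.2%. Fdps there ran the other way, lowest in set 4. The haemoglobin-rich cells that were set apart, which also carried endothelial markers, numbered 250, 146, 19 and 36 in sets 1 to 4. Their part in the endothelial-like result was not tested. T cell-like cells had 0 of 6 measured enzymes higher in sets 3 and 4, against 25.4% of all measured genes. Sqle in T cell-like cells was highest in set 1 and lowest in set 4 (2.03-fold, interval 1.19 to 3.46), the only 1 of the 6 to differ by at least 2-fold, against 15.2% of all measured genes.

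**Figure D5:**
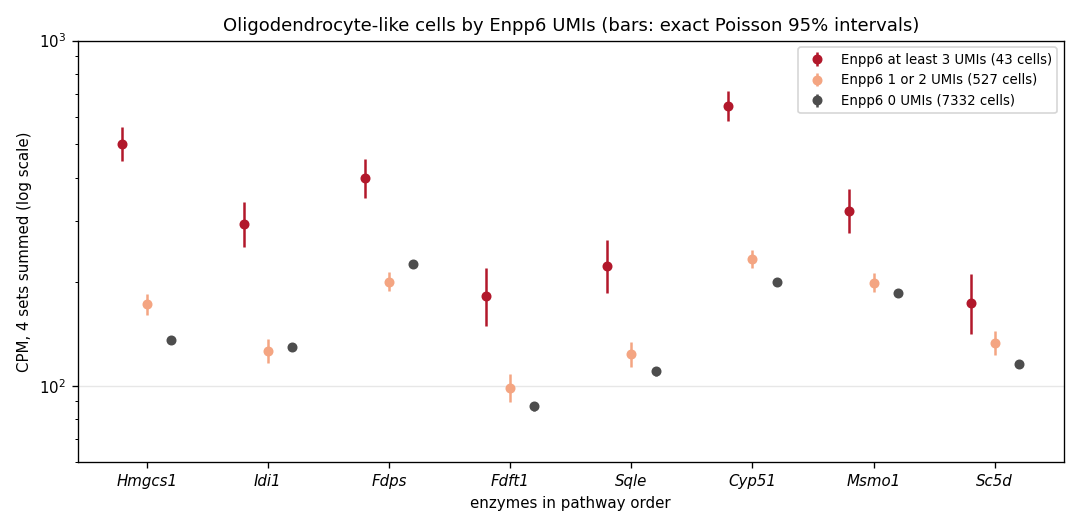
Levels in CPM (log scale) of the 8 enzymes in oligodendrocyte-like cells with at least 3, with 1 or 2 and with 0 UMIs of Enpp6, summed over the sets, with exact Poisson 95% intervals. The 43 cells with at least 3 are highest for every enzyme, from 173 CPM for Sc5d to 647 CPM for Cyp51.

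Within oligodendrocyte-like cells the enzymes were higher in the few cells rich in Enpp6, known as a marker of newly formed oligodendrocytes. This split was chosen after its values were seen and is given as a description. Summed over the sets, the 43 cells with at least 3 Enpp6 UMIs had 502 CPM of Hmgcs1, against 136 CPM in the 7332 cells with none. This was 3.69 times as much (counting interval 3.27 to 4.14). Cyp51 followed at 3.25 times, then Idi1 at 2.28, Fdft1 at 2.09, Sqle at 2.02, Fdps at 1.77, Msmo1 at 1.73 and Sc5d at 1.50 times. Idi1 and Hmgcs1, which set oligodendrocyte-like cells least apart from other types, were among the 3 with the largest folds over the summed sets. The interval of Idi1 (1.95 to 2.65) overlapped those of Fdft1 (1.71 to 2.53) and Sqle (1.68 to 2.40), so its place is not settled. The 527 cells with 1 or 2 Enpp6 UMIs lay closer to those with none: Fdps was at 200 against 225 CPM and Idi1, with overlapping intervals, at 126 against 129 CPM, while Hmgcs1 was at 172 against 136 CPM, but at 83.9 against 100.1 CPM within set 1. The myelin gene Mog was, in the 43 cells, at 1.12 times (1.05 to 1.19).

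The 43 cells came mostly from sets 3 and 4, with 17 and 22 cells, and from sets 1 and 2 with 2 each. Hmgcs1 was at 472 against 147 CPM within set 3 and at 530 against 172 CPM within set 4. For Sc5d these were 155 against 123 and 167 against 127 CPM. In the 2 cells of set 1 Hmgcs1 was at 898 against 100 CPM, but the 2 cells of set 2 held 0 UMIs of it, against 107 CPM. The folds over the summed sets thus also hold the difference between sets. The summed level of the 8 enzymes had a median of 1681 CPM per cell in the 43 cells and 972 CPM in the cells with none, and 6 of the 43 exceeded 5000 CPM. The 43 cells were deeper, with a median of 10707 against 5460.5 UMIs. The other 7 markers of newly formed oligodendrocytes, of which 5 were found in the 43 cells, summed to 315 CPM there. They summed to 34.5 CPM in the cells with 1 or 2 Enpp6 UMIs and to 54.8 CPM in those with none. Between the 43 cells and those with none, the precursor panel stood at 727 against 937 CPM. The oligodendrocyte panel stood at 27423.5 against 24804.6 CPM and the microglia panel at 48.8 against 62.5 CPM. Enpp6 was not restricted to this lineage, since microglia-like cells held 23.1 CPM of it, against 16.7 CPM in all oligodendrocyte-like cells. Without the 43 cells the same number of enzymes, 6, was called higher in oligodendrocyte-like cells.

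The genes whose levels ran closest to the mean profile of the 8 enzymes were sought over 16 points, the 4 main cell types in 4 sets, among 11568 genes. The points share libraries and cell types, so the correlations are a description. Among the nearest 10 were Rab2a (r = 0.983), Zfp955a, Stard3nl, Vamp2, Ppp1r16b, Cisd1, Impad1, Gmcl1 and Urm1 (0.973). Rab2a stood at medians of 397 CPM in oligodendrocyte-like, 171 CPM in endothelial-like and 119 CPM in microglia-like cells. Of the enzymes themselves Msmo1 (0.982), Sqle (0.973) and Sc5d (0.965) lay closest to their shared mean, of which each is itself a part, and Idi1 farthest from it (-0.20).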

How the data were processed

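The deposited file is 1 matrix of UMI counts, whole numbers as the authors deposited them, with lists of genes and barcodes. Per the file headers it was written by Cell Ranger 5.0.0, and the submitters' processing notes name Cell Ranger, STAR and the build Rnor_6.0. The gene annotation and the cell calling settings: not given in the sources used here. Per the labels' protocols, tissue was dissociated enzymatically and red cells were lysed. The lowest barcode total was 500 UMIs.

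A barcode counted as a cell from 500 UMIs and 300 genes upwards if its mitochondrial share did not exceed 20%. Doublets were called per set with Scrublet at an expected 6% and removed, 211, 268, 129 and 334 cells, which left 6343, 7982, 5186 and 8426. A cell received a type when at least 3 of the type's markers were found, the share of that panel found was the highest, at least 2 times that of any unrelated panel and above related ones. Cells with at least 4 of 5 haemoglobin-related markers were set apart. Of 181 markers in 20 panels 166 matched a gene. The thresholds of the gate were set with the data in view. The gates for monocytes and B cells were not described, since 247 of 306 and 131 of 238 of their cells held only the minimum of 3 markers.

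UMIs were summed per type and set and divided by their total (CPM), with exact Poisson 95% intervals. Shares have exact binomial intervals, which bear on results only where given. Ratios are between the type and the sum of all other gated cells of the same set, without the haemoglobin-rich cells, and have exact conditional binomial intervals. Genes had to reach 20 UMIs in each set, both sides together, and between sets 50 UMIs in the highest and lowest set together. The named genes were all 8 enzymes, of the other lists the called genes with up to the 25 largest ratios per comparison (the report names those outside it), and the 10 genes with the highest Pearson correlation with the enzymes' mean profile in log2(CPM + 5). Of 65 list genes 64 matched (not Lbr). The values of some genes are not reported here. The enzymes and the lists were chosen with earlier results of these data known. The calling rule was checked on simulated data. Alternatives are given in the closing section, and the totals without haemoglobin, mitochondrial and immunoglobulin UMIs and the removal of cells with 3 or more Enpp6 UMIs were added after seeing the data. TMM factors came from edgeR 4.0.16 (R 4.3.3), and all else was computed in Python 3.11.15 with scanpy 1.11.5, numpy 2.4.6, scipy 1.17.1 and pandas 2.3.3.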

Additional observations from a re-analysis of the deposited data

How the results depend on the processing

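Each comparison was repeated with a gate of 2 or of 4 markers, with named Leiden clusters in place of the gate, with all barcodes, with a stricter filter of cells (at least 1000 UMIs, at most 10% mitochondrial), with doublets kept, with cells thinned to 1000 UMIs, with the mean of per-cell CPM, with TMM scaling, with equal weight of the other types, with 50 UMIs or 1 UMI as minimum and without each set in turn. Totals without haemoglobin, mitochondrial and immunoglobulin UMIs and the removal of Enpp6-rich cells were added after seeing the data. Under all of these 6 or 7 enzymes were called higher in oligodendrocyte-like cells and 0 lower, 0 differed by at least 2-fold between sets there, and 0 were called higher in endothelial-like, microglia-like or T cell-like cells. Of the enzymes' log2 ratios under these alternatives, 558 stayed on their side of the calling rule, 13 lost and 5 gained a call, and no called ratio changed sign. Levels were less stable: under the alternatives applied to them, 313 were counted as the same and 39 as moved. Of the moved ones, 15 were with TMM scaling and 11 with the added totals.

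Enzymes called lower in endothelial-like cells were 0 with the gate of 2 markers, Leiden clusters, the stricter filter, thinning, mean CPM, TMM scaling, equal weight and the added totals, against 1, and ran from 1 to 3 when each set was left out. Those differing between sets there were 0 with the stricter filter, 3 thinned and 0 with TMM scaling, against 1. In microglia-like cells equal weight gave 3 enzymes called lower against 6, and 3 other pathway genes higher against 7 and 10 lower against 20. Enzymes differing between sets there were 1 thinned and 1 with mean CPM, against 2. In T cell-like cells 0 enzymes were called lower when thinned and 0 with equal weight, against 1, and 7 other genes were called lower when thinned, against 15. Differing between sets there were 2 enzymes with all barcodes, 2 with doublets kept, 2 with the added totals, 0 thinned and 0 with TMM scaling, against 1. Thinning left 12 other pathway genes called higher in oligodendrocyte-like cells, against 20, and equal weight left 7 called lower in endothelial-like cells, against 15. Except for thinning, which leaves fewer UMIs, and sets left out, the cause was not tested. With 1 CPM added in place of 5, 9 of the 10 genes nearest to the enzymes' profile stayed. No paired analysis was possible because each titled sample has a single library and barcode sets carry no replicate number. Depth limits levels in the small types: Fdft1 in T cell-like cells rests on 33 UMIs over the 4 sets.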
